A study of Mus musculus with 10 samples.

Results

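The genes described here are those of DNA replication and S phase, the stage of the cell cycle in which the genome is copied. The list holds 42 genes chosen for their known functions, with earlier results of these data known, and a probe belonged to it when its gene symbol was on the list, a rule that uses no measured value. 41 of the 42 genes had a probe under their symbol, with 43 probes in all, among 26423 probes and 19942 gene symbols on the array. No probe carried the symbol *Pcna*. After removal of probes with very low values, 35 of the 42 genes were measured, among 16113 genes in all. The samples were left ventricles of male C57BL/6J mice operated at 8 weeks of age, either with transverse aortic banding (TAB), which narrows the aorta and loads the heart with pressure, or with a sham operation, in which the labels name no banding. No genotype or drug was varied. Days 3, 5, 7, 14 and 28 were sampled, with 1 TAB and 1 sham sample per day and thus 10 samples, and the number of mice behind a sample is not stated. One TAB sample is titled day 14 but has a condition label of 15 days, and it was taken as day 14 here.

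Before a cell divides, the origin recognition complex, Cdc6 and Cdt1 load the ring-shaped Mcm2 to Mcm7 helicase onto DNA, a step called licensing that geminin blocks by holding Cdt1. In S phase, Cdc45 and the GINS complex turn the loaded ring into an active helicase, polymerases copy both strands behind it, and flap removal and ligation join the short fragments of the lagging strand. Ribonucleotide reductase supplies the deoxynucleotides, and chromatin and DNA methylation are rebuilt behind the fork. Many of these genes are known targets of the E2F transcription factors. Adult mouse cardiomyocytes rarely divide, whereas fibroblasts, leukocytes and endothelial cells of the heart can. In RNA of whole tissue, a change in the number of cells of a type and a change in RNA per cell cannot be told apart.

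Values are normalized intensities of an array of 60-mer probes read in 1 colour, and a log2 ratio is the log2 of TAB over sham on the same day. The deposited flag of a spot was read as "found" unless negative, the common use of the scanning software. 19 of the 35 measured genes were found on all 10 arrays and 16 on 1 to 9 arrays. Between 40.2% and 47.3% of all spots of an array were not found, and the 1st percentile of the raw intensity of found spots lay between 25 and 27. The median raw intensity of an array was 34 to 57. On day 3 it was 34 in TAB and 53 in sham, so the ratios of that day lean most on the scaling of the arrays. The tissue label was borne out by the cardiomyocyte markers, of which all 10, among them *Myh6*, *Tnnt2* and *Ttn*, were found on every array.

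Most of the 35 replication genes read higher in TAB than in sham on days 3 to 14, with 31, 31, 29 and 29 above sham on days 3, 5, 7 and 14 and 21 on day 28, beside 46.6% to 49.8% of all genes. The largest ratio of a gene was that of day 5 in 21 of the 35, beside 20% of all genes. The median log2 ratio of the 35 genes went from 1.11 on day 3 to 1.48 on day 5, then was 0.86 and 0.57 on days 7 and 14 and 0.10 at day 28, whereas the median of all 16113 genes stayed between −0.06 and 0.00. On a linear scale these medians were 2.17-, 2.79-, 1.81-, 1.48- and 1.07-fold. The 19 genes found on all 10 arrays had medians of 1.07, 1.37, 0.65, 0.36 and 0.02 in the same order. A gene was called up-regulated on a day when its log2 ratio exceeded 2 SDs of the ratios of all genes that day, the DE rule of the study. 5 replication genes were up-regulated on day 3 beside 3.1% of all genes, 10 on day 5 (4.09% of all genes), 6 on day 7 (4.08%), 5 on day 14 (3.39%) and none on day 28 (3.41%). No replication gene was down-regulated on day 3, 5, 7 or 14, when 2.1%, 1.43%, 1.58% and 2.27% of all genes were, and 1 (*Pola1*) was on day 28, beside 2.47%. With 1 sample per operation and day, these calls have no replicate check and carry no p-value.

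**Figure D1:**
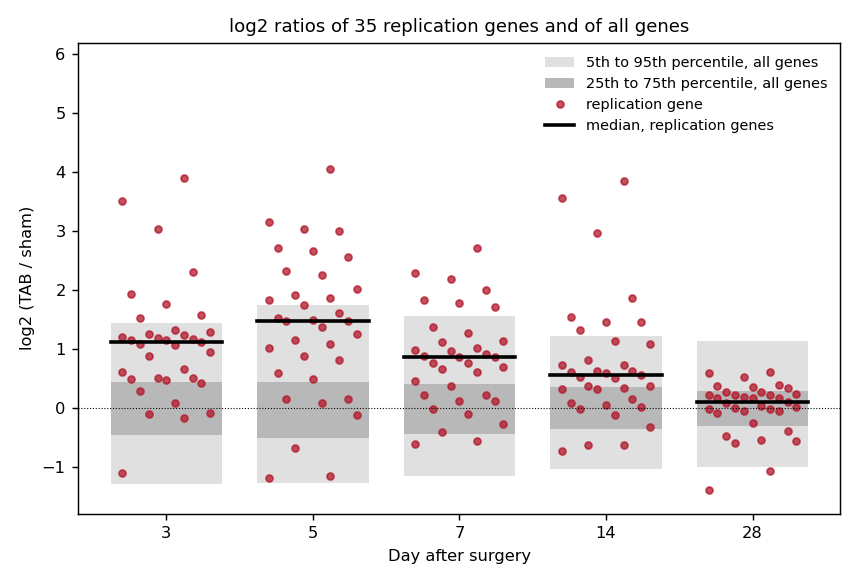
Log2 ratio of TAB to sham (vertical axis) by day after surgery (horizontal axis, days evenly spaced) for the 35 measured replication genes (points, spread sideways for legibility) with their median (black line), over the 5th to 95th and 25th to 75th percentiles of all 16113 genes (light and dark grey). The median of the replication genes reached 1.48 on day 5 and was 0.10 on day 28, when no replication gene exceeded the 95th percentile of all genes.

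In 27 of the 35 genes the highest of the 10 samples was TAB day 5, which was so for 13.6% of all genes. TAB day 5 lay above all 5 sham samples in 28 genes, against 28.4% of all genes. 17 genes were higher in TAB than in sham on every one of the 5 days, against 17.3% of all genes. In 11 genes all 5 TAB samples lay above all 5 sham samples, which held for 9.99% of all genes, and in 1, *Gmnn*, all 5 lay below, which held for 7.76%. On day 28 the TAB sample lay inside the range of the sham samples in 17 of the 35 genes, beside 60.5% of all genes. The sham sample of day 28 was the highest of the 5 sham samples in 17 of the 35 genes, beside 21.3% of all genes. Relative to the sham mean, the median log2 level of the 35 genes was 0.95, 1.48, 0.85, 0.37 and 0.26 in the TAB samples of days 3, 5, 7, 14 and 28, and −0.16, 0.07, 0.07, −0.12 and 0.29 in the sham samples. By this median the TAB samples of days 3, 5, 7 and 14 lay above every sham sample and that of day 28 did not, although 21 of the 35 genes had a ratio above 0 on day 28, beside 49.1% of all genes.

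The effect of TAB over the days was tested with limma in a model that held the day as a block, with p adjusted by Benjamini-Hochberg over all 16113 genes at 0.05, so that the 5 days were the only replicates of the operation. 11 of the 35 replication genes (31.4%) were higher in TAB, beside 9.19% of all genes. These were *Rrm2*, *Uhrf1*, *Clspn*, *Lig1*, *Mcm6*, *Cdt1*, *Chaf1a*, *Mcm3*, *Fen1*, *Hells* and *Orc6*, with mean log2 ratios from 2.49 down to 0.67. 1 gene, *Gmnn*, was lower in TAB, beside 7.87% of all genes, and 23 did not pass. The mean log2 ratio was above 0 in 30 genes and below 0 in 5. Among the 19 genes found on all 10 arrays, 11 were higher when probes not found on every array were left out before normalization, beside 17.65% of the genes then tested. Calls over all genes and over the list both fell when 1 of the first 4 days was left out. Without day 3, 5, 7 or 14 no replication gene passed, when 0.18%, 0.534%, 0.124% and 3.51% of all genes did, and without day 28, 17 passed, beside 9.2%. At an unadjusted p under 0.05, 17 to 22 replication genes were higher without 1 of the first 4 days, beside 13.9% to 16.2% of all genes. When no probe was removed and values below 1 were set to 1, 1 of 41 replication genes, *Rrm2*, was higher (2.44%), beside 2.30% of all genes. A fit without the day block called 17 of the 35 genes higher, beside 12.11% of all genes. With 50 added to every intensity before log2, which damps ratios of dim spots, 17 passed as well (13.91% of all genes), with smaller mean log2 ratios, such as 1.28 for *Rrm2* and 0.80 for *Uhrf1*, and *Clspn* no longer passed (0.46, limma adjusted p = 0.0530).

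**Figure D2:**
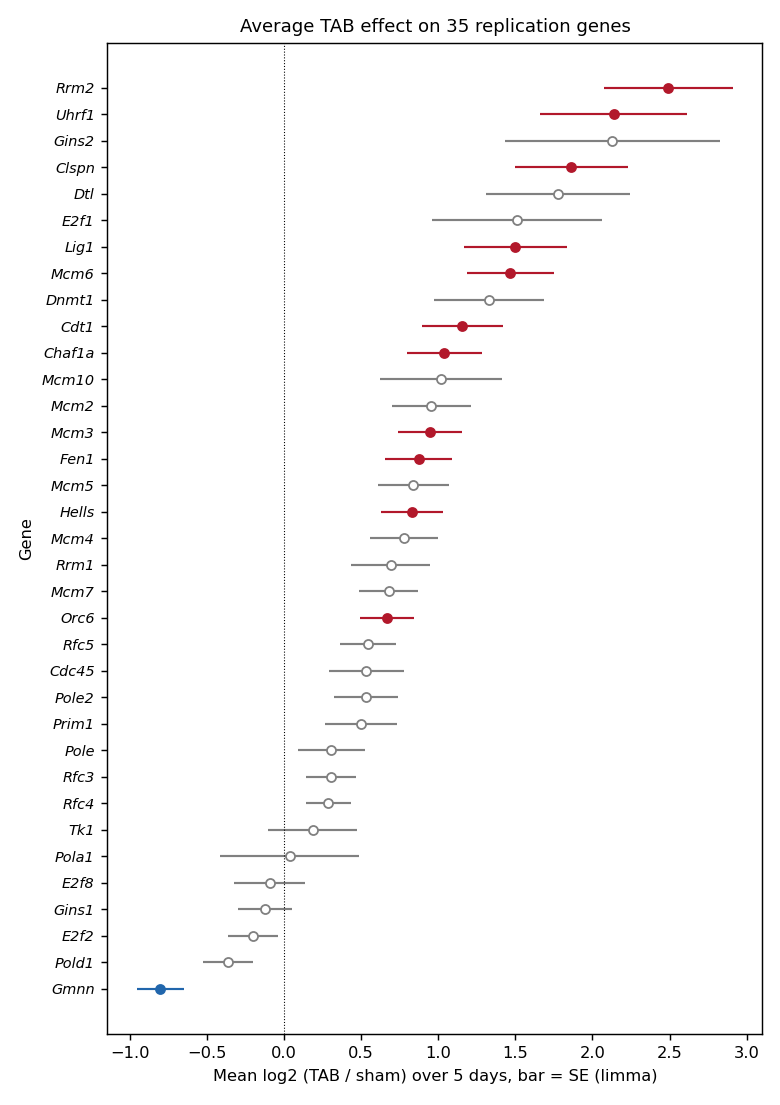
Mean log2 ratio of TAB to sham over the 5 days (horizontal axis) with its SE from limma (bars) for each of the 35 measured replication genes (vertical axis, ordered by the mean). Filled red points mark the 11 genes called higher, the filled blue point the 1 gene called lower (*Gmnn*, −0.80) and open grey points the 23 genes that did not pass, of which *Gins2* (2.13) had the highest mean.

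The sequence around the start sites was not used to make the list. Many of the genes are known E2F targets, however, so E2F words near them are not independent of the choice of genes. The windows of all genes set beside them were not matched for base content. RefSeq windows of 300 bases on GRCm38.p6, from 250 before to 50 after the start, were at hand for 37 of the 42 genes, 45 windows in all. An E2F word, here TTTCCCGC, TTTCGCGC, TTTGCCGC or TTTGGCGC on either strand, was in the windows of 18 of the 37 genes (48.65%), beside 2.605% of the 27025 genes with a window. Counted by window, it was in 18 of 45 (40%) beside 2.265% of 32851. The CCAAT box (CCAAT, either strand) was in 60% of the 45 windows beside 37.41% of all windows, and a cell cycle homology region (TTTGAA or TTCGAA, either strand) in 17.78% beside 19.23%. Matches that overlap were each counted. All 11 genes called higher had a window, and 7 of them held an E2F word. The 16 measured genes with an E2F word had a median mean log2 ratio of 0.89 and ranged from −0.36 to 2.14, and the 14 measured genes with a window but no such word had a median of 0.68 and ranged from −0.09 to 2.49. A match is a description of letters and does not show that a factor binds there. Shown are 4 genes that were higher in TAB and hold the word and, for contrast, *Rrm2*, which had the largest measured mean log2 ratio and holds none of the 4 words in this window. Each is written 5′ to 3′ along the gene, and capitals mark the E2F words.
Mcm6, chr1:128359656-128359955, minus strand: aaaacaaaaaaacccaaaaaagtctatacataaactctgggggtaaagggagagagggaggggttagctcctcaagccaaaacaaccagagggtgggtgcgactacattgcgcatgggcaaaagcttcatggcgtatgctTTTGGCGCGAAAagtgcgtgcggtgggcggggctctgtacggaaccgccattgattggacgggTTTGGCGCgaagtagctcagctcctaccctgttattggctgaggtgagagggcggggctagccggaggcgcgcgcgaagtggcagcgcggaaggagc
Mcm3, chr1:20820263-20820562, minus strand: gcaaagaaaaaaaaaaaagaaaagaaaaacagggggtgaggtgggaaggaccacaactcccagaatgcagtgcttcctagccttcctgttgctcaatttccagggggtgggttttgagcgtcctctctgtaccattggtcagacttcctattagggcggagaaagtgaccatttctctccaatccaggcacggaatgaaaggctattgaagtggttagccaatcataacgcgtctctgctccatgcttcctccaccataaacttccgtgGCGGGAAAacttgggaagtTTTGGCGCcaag
Lig1, chr7:13278576-13278875, plus strand: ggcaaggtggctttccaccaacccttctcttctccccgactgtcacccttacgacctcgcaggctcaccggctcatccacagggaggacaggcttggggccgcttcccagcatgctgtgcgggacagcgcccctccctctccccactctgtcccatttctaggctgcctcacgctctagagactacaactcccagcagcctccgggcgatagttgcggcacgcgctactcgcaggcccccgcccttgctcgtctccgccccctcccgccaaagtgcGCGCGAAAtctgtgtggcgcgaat
Clspn, chr4:126556730-126557029, plus strand: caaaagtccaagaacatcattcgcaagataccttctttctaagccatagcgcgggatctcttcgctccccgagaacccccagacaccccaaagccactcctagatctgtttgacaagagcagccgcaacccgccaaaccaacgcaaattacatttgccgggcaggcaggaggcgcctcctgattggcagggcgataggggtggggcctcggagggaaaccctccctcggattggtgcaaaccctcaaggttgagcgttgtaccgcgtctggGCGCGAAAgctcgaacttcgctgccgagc
Rrm2, chr12:24708004-24708303, plus strand: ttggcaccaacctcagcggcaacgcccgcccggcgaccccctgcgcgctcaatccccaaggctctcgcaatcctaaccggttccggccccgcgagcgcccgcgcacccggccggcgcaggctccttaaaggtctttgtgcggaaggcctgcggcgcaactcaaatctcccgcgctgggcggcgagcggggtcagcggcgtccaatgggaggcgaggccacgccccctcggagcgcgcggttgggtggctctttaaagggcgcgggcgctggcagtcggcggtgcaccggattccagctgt
*Lig1* has 3 windows, of which the one with the word is shown. *Mcm6* holds 3 matches, all before the start, 2 of which overlap in the first capital run. *Mcm3* holds 2 and the windows shown of *Lig1* and *Clspn* hold 1 each, all of which lie after the start.

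Among the licensing genes, 9 of the 11 on the list were measured, 4 of these were higher in TAB and 1 was lower, beside 9.19% and 7.87% of all genes. *Mcm6*, a subunit of the helicase ring whose window is shown above, had intensities of 352, 516, 326, 262 and 195 in the TAB samples of days 3, 5, 7, 14 and 28 and of 91.9, 103, 126, 105 and 150.2 in the sham samples of the same days. All TAB values lay above all sham values, and the gap was narrowest on day 28. The mean log2 ratio was 1.47 (SE 0.28, n = 5 days, limma adjusted p = 0.0265), or 2.77-fold, and *Mcm6* was up-regulated on days 3 and 5. *Mcm3*, another ring subunit, read 133, 207, 131, 93.4 and 69.9 in TAB and 59.99, 67.4, 65.9, 53.4 and 61.7 in sham over the same days. Its TAB values fell from day 5 to day 28 without meeting the sham range, and its mean log2 ratio was 0.95 (SE 0.21, limma adjusted p = 0.0347). The other ring subunits, *Mcm2*, *Mcm4*, *Mcm5* and *Mcm7*, had mean log2 ratios of 0.96, 0.77, 0.84 and 0.68, with limma adjusted p from 0.0529 to 0.0594, and did not pass. In all 6 subunits the highest sample was TAB day 5, and on day 28 their log2 ratios lay between −0.01 (*Mcm4*) and 0.39 (*Mcm5*).

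*Cdt1*, the loader that brings the ring to the origin, had 148, 249.8, 162, 71.1 and 96.7 in TAB and 49.8, 61.8, 67.3, 47.4 and 76.02 in sham. Its TAB values were high on days 3 to 7 and the value of day 14 fell inside the sham range. The mean log2 ratio was 1.16 (SE 0.26, limma adjusted p = 0.037), and day 5 passed the 2 SD rule. *Gmnn*, which encodes geminin, the inhibitor of Cdt1, went the other way, with 443, 510.3, 662, 666 and 946 in TAB and 960.5, 1141, 1012, 1110.2 and 1236 in sham. All TAB values lay below all sham values, with log2 ratios of −1.12, −1.16, −0.61, −0.74 and −0.39 on the 5 days. The gap was narrow, with 946 on TAB day 28 and 960.5 on sham day 3. Raw intensities of these 2 samples were 1131 and 968, with array medians of 55 and 53. By median scaling alone, TAB day 28 thus lay above sham day 3. Its mean log2 ratio was −0.80 (SE 0.15, limma adjusted p = 0.0258), and no single day passed 2 SDs. *Orc6*, a subunit of the origin recognition complex, had 269, 276, 282, 203 and 179.9 in TAB and 115, 157, 166, 163 and 155 in sham. The TAB values of days 3 to 7 were nearly level and all 5 lay above sham, with a mean log2 ratio of 0.67 (SE 0.17, limma adjusted p = 0.0487). Its ratio was largest on day 3, when the sham sample was the lowest of the 5.

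**Figure D3:**
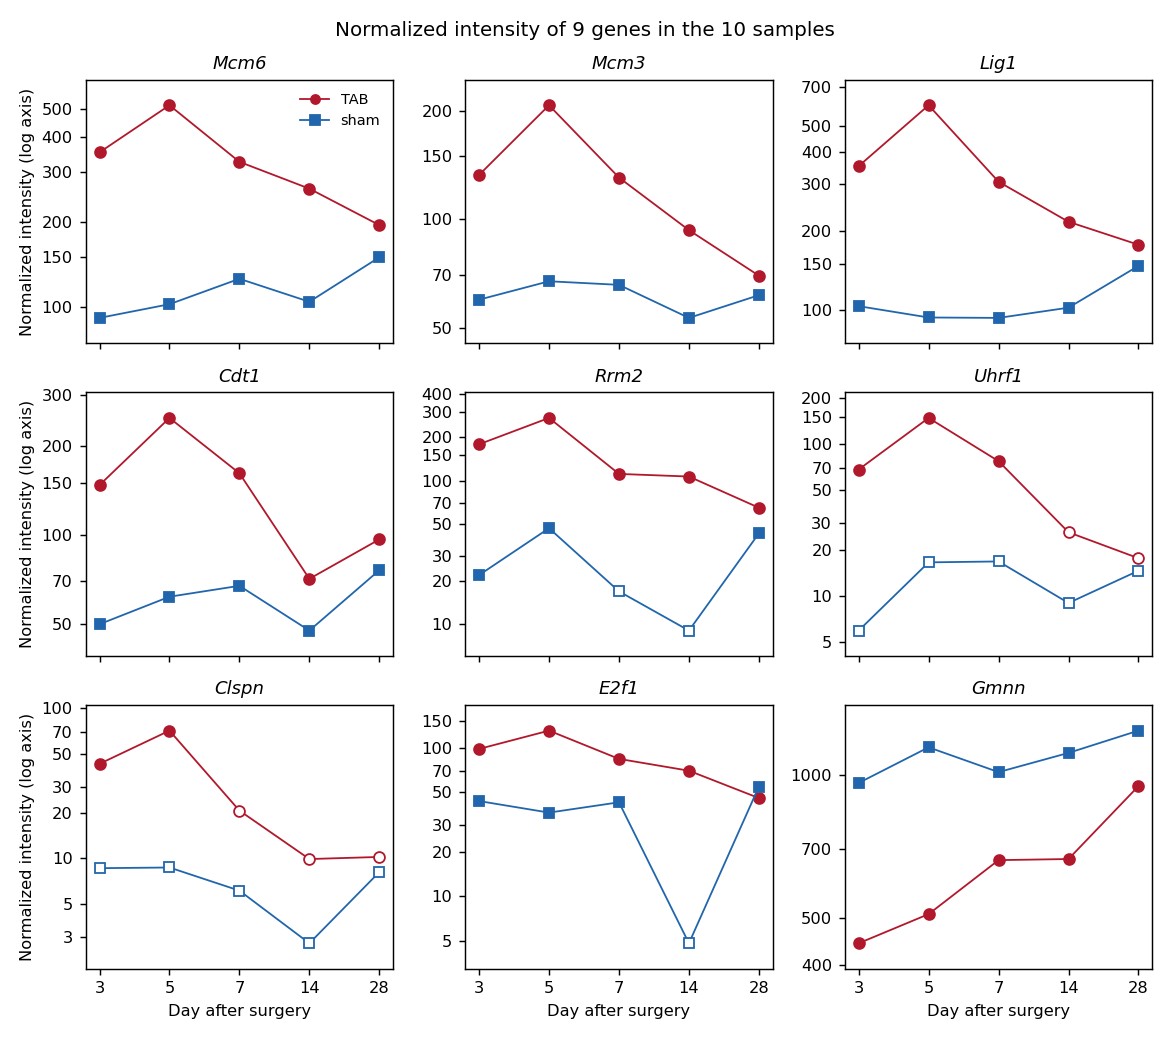
Normalized intensity (vertical axes, logarithmic, one scale per gene) by day after surgery (horizontal axes, days evenly spaced) of 9 replication genes in the TAB samples (red circles) and sham samples (blue squares), 1 sample each. Filled symbols mark spots that were found and open symbols spots that were not, among them every sham spot of *Uhrf1* and *Clspn*, and lines join separate samples. TAB lies above sham on each day in all genes shown but *E2f1* on day 28 and *Gmnn*, whose TAB values of 443 to 946 lie below the sham values of 960.5 to 1236.

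The 4 genes of helicase activation were all measured and none passed the test over days, beside 9.19% higher and 7.87% lower among all genes. *Gins2*, a GINS subunit, had the largest single-day ratios of the list, with 75.3, 110.0, 50.4, 24.6 and 12.6 in TAB and 5.06, 6.64, 14.2, 8.99 and 18.96 in sham. It was found in TAB on days 3, 5 and 7 and in sham only on day 28, where TAB was the lower of the 2. Log2 ratios of 3.90, 4.05 and 1.83 on days 3, 5 and 7 passed 2 SDs but rest on sham spots that were not found, and the mean of 2.13 (SE 0.70, limma adjusted p = 0.0832) did not pass. *Mcm10*, a factor that helps to activate the helicase, had 102, 154, 75.2, 56.7 and 42.03 in TAB and 42.7, 23.6, 41.2, 45.6 and 43.8 in sham. Day 5 was up-regulated with a log2 ratio of 2.71, when the TAB sample was the highest and the sham sample, not found, the lowest of its group. *Cdc45* had a mean log2 ratio of 0.53 and *Gins1*, another GINS subunit, of −0.12, and neither passed (limma adjusted p = 0.174 and 0.658). The second probe of *Gins1*, also found on all 10 arrays, had a mean log2 ratio of −0.01.

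In the group of polymerases, clamp and clamp loader, 8 of 9 listed genes were measured. None passed the test over days in either direction, beside 9.19% higher and 7.87% lower among all genes. Mean log2 ratios ran from −0.36 (*Pold1*, catalytic subunit of polymerase delta) to 0.54 (*Rfc5*, a subunit of the clamp loader). The median of the group was 0.48, 0.74, 0.34, 0.22 and 0.00 on days 3, 5, 7, 14 and 28. *Rfc3*, *Rfc4* and *Pole2*, found on all 10 arrays, had ratios on day 5 of 0.87, 0.49 and 1.37. The catalytic subunits were mostly not found, with *Pole* found on 1 array, *Pola1* on 1, *Prim1*, the primase, on 4 and *Pold1* on 4. *Pola1* had 5.18, 6.74, 9.44, 13.2 and 8.59 in TAB and 2.39, 15.5, 4.995, 7.97 and 22.5 in sham, so the call of day 28 compares a TAB spot that was not found with the only sham spot that was. For these 4 genes the array gives no firm level, and a change could have gone undetected.

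Both genes of flap removal and ligation were higher in TAB, beside 9.19% of all genes. *Lig1*, the ligase that seals fragments of the lagging strand, had 352, 599, 307, 217 and 177 in TAB and 104, 94.04, 93.7, 102 and 147 in sham. All TAB samples lay above all sham samples, TAB day 5 was the highest and sham day 28 the highest of the sham group. The mean log2 ratio was 1.499 (SE 0.33, limma adjusted p = 0.035), or 2.83-fold, and day 5 passed 2 SDs. *Fen1*, the nuclease that cuts the flaps of these fragments, had 379, 580.5, 348, 200.1 and 213 in TAB and 155, 202, 192, 139 and 189 in sham. Its TAB value of day 14 lay inside the sham range and the mean log2 ratio was 0.87 (SE 0.22, limma adjusted p = 0.0445).

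In nucleotide synthesis, 1 of 3 measured genes was higher in TAB over the days, beside 9.19% of all genes. *Rrm2*, the small subunit of ribonucleotide reductase, had the largest measured mean log2 ratio of the list, with 179, 273, 111, 107 and 64.6 in TAB and 21.9, 46.5, 16.9, 8.99 and 42.8 in sham. The groups did not overlap. The sham spots of days 7 and 14 were not found, so its fold and its rank in the list are not firm. The mean log2 ratio was 2.49 (SE 0.42, limma adjusted p = 0.0223), or 5.63-fold, and days 3, 5, 7 and 14 passed 2 SDs, whereas the ratio of day 28 was 0.59. *Rrm1*, the large subunit of the same enzyme, had ratios of 1.15, 1.49, 0.76, 0.14 and −0.09 on the 5 days and did not pass (limma adjusted p = 0.109). Its second probe was found on no array and had been removed. *Tk1*, thymidine kinase, had a mean log2 ratio of 0.18 that rested on day 14 (1.46), when its sham spot was not found, and without that day the mean was −0.13.

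Of the genes that rebuild chromatin and methylation behind the fork, 3 of 4 measured were higher in TAB over the days, beside 9.19% of all genes. *Uhrf1*, which recognizes hemimethylated DNA and recruits the maintenance methyltransferase, had 67.9, 148, 77.1, 26.3 and 17.7 in TAB and 5.92, 16.6, 16.9, 8.99 and 14.7 in sham. It was found in TAB on days 3, 5 and 7 and on no sham array, so its fold is a bound, which compares the mean of all TAB samples with, on each sham array, the larger of the spot's own value and a floor. With the lowest found intensity as the floor, no sham value was raised and the bound equals the measured 4.399-fold (limma mean log2 ratio 2.14, SE 0.48, adjusted p = 0.0352). With the 1st percentile of the normalized intensities of found spots on an array as the floor, TAB was at least 2.11-fold higher. *Dnmt1*, that methyltransferase, had 38.6, 56.6, 45.4, 22.9 and 41.1 in TAB and 15.5, 11.8, 9.34, 15.03 and 36.8 in sham. Days 5 and 7 passed 2 SDs against sham spots that were not found, TAB and sham differed by 0.16 on day 28, and the mean of 1.33 (SE 0.36) had a limma adjusted p of 0.0525 and did not pass. *Chaf1a*, a subunit of the chromatin assembly factor, had 43.4, 71.1, 37.2, 31.5 and 27.6 in TAB and 18.98, 18.9, 16.9, 18.98 and 23.6 in sham. No group overlap was seen, but it was found on 3 TAB and 2 sham arrays, with a mean log2 ratio of 1.04 (SE 0.24, limma adjusted p = 0.0384). With median scaling only, its adjusted p was 0.0609 and the gene did not pass. *Hells*, a chromatin remodeller needed for DNA methylation, was found on all arrays, with 99.2, 115, 76.1, 48.2 and 56.1 in TAB and 34.5, 56.9, 41.2, 34 and 48.2 in sham. TAB was the higher on each day, the groups overlapped through TAB days 14 and 28, and the mean log2 ratio was 0.83 (SE 0.20, limma adjusted p = 0.0419).

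Of 4 genes of checkpoint, fork protection and repair, 2 were measured. *Clspn*, the adaptor that passes the fork's stress signal to the kinase Chk1, had 42.7, 71.1, 20.8, 9.898 and 10.2 in TAB and 8.604, 8.695, 6.095, 2.72 and 8.11 in sham. It was found on TAB days 3 and 5 and on no sham array. TAB was at least 2.63-fold higher with the lowest found intensity as the floor, and no fold could be given with the 1st percentile, whose mean over the sham arrays exceeds the TAB mean, beside a measured mean log2 ratio of 1.86 (SE 0.37, limma adjusted p = 0.0277). *Dtl*, the adaptor of the ubiquitin ligase that degrades Cdt1 in S phase, had 38.6, 105, 51.4, 37.97 and 34.5 in TAB and 31.6, 13.05, 12.9, 4.84 and 22.5 in sham. The groups did not overlap and days 5, 7 and 14 passed 2 SDs, each against a sham spot that was not found, and the mean of 1.78 (SE 0.47) had a limma adjusted p of 0.0506, just short of the threshold.

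**Figure D4:**
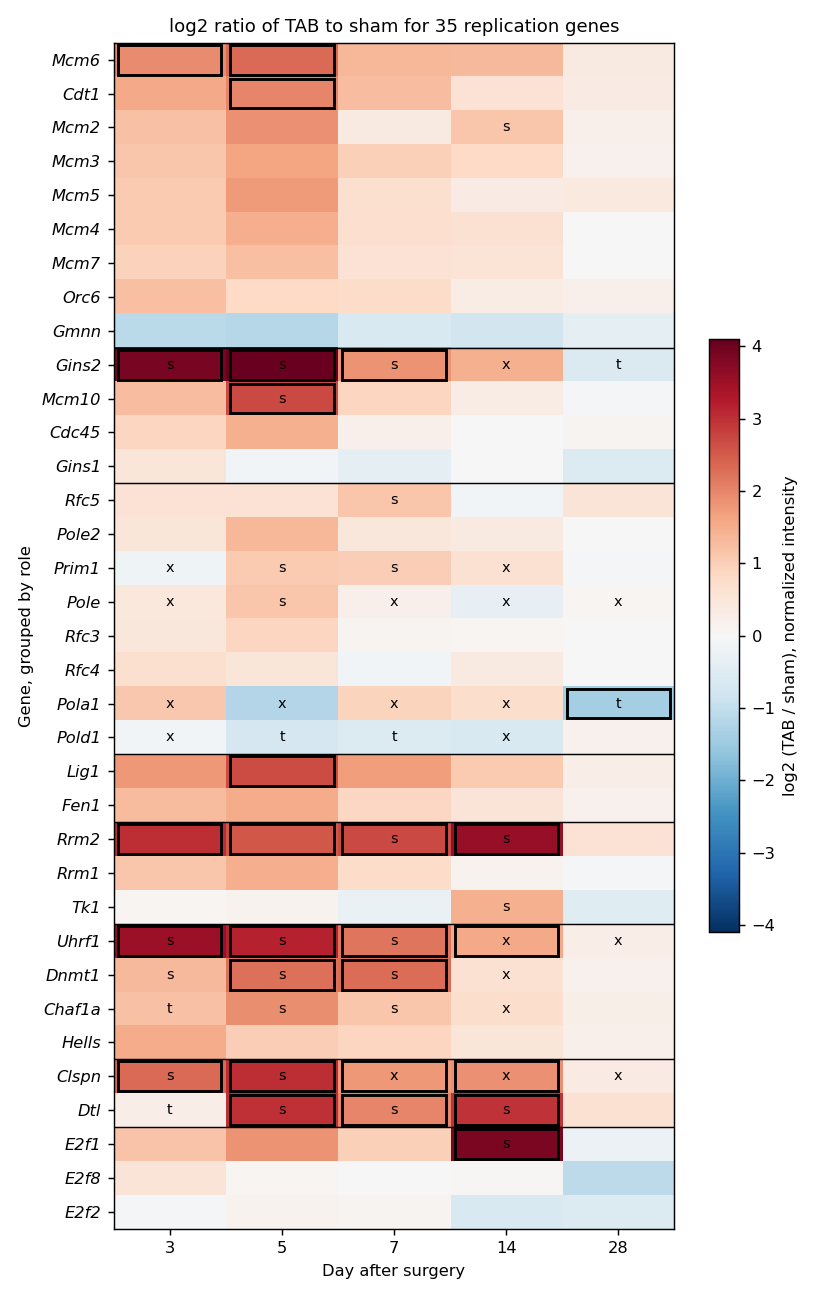
Log2 ratio of TAB to sham (colour, red for higher and blue for lower in TAB) for the 35 measured replication genes (rows, grouped by role in the order licensing, helicase activation, polymerases and clamp loader, flap removal and ligation, nucleotide synthesis, chromatin, checkpoint, E2F factors) on each day (columns). Black boxes mark ratios past 2 SDs of the day, and letters mark spots not found in sham (s), in TAB (t) or in both (x). Boxes lie on days 3 to 14 except that of *Pola1* on day 28 and are most frequent on day 5, with 10.

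Among the E2F factors that drive many of these genes, none passed the test over days, beside 9.19% higher and 7.87% lower among all genes. *E2f1*, an activator, had 98, 130.1, 84.02, 69.96 and 45.8 in TAB and 43.7, 36.6, 42.9, 4.84 and 54.7 in sham. TAB was the higher on days 3 to 14 and the lower on day 28. The log2 ratio of day 14 (3.85) passed 2 SDs but rests on a sham spot that was not found, far below the other 4 sham samples. The mean was 1.51 (SE 0.55, limma adjusted p = 0.106). *E2f2*, another activator, and *E2f8*, a repressor, had mean log2 ratios of −0.20 and −0.09, with limma adjusted p of 0.415 and 0.809. Both were found on all arrays.

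6 listed genes had been removed for low values. *Cdc6* and *Orc1*, which act in licensing, *Tyms*, which makes thymidylate, and *Brca1* and *Chek1*, of repair and checkpoint, were found on no array. *Chaf1b*, the partner of Chaf1a, was found on TAB days 5 and 7 only, with raw intensities of 10, 69, 28, 12 and 2 in TAB and 0, 7, 0, 8 and 11 in sham. Nothing can be said from these probes on whether the other 5 genes changed.

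In 30 of the 35 genes the mean log2 ratio was larger on days 3 to 7 than on days 14 and 28, beside 49.1% of all genes. The difference between the stages was tested in limma as an interaction of operation and stage. No replication gene and no gene at all passed (0% of all genes, lowest adjusted p 0.394 among the 35 and 0.191 over all genes). At an unadjusted p under 0.05, 11 of the 35 genes differed, beside 11% of all genes, and 6, 6, 15, 14 and 2 did without day 3, 5, 7, 14 and 28, beside 10.7%, 8.51%, 8.58%, 10.6% and 8.15%. With 3 early and 2 late days, the decline is thus described by the medians and was not established gene by gene.

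Other genes of the same process, taken from lists set apart from the 42, were examined beside them. Of 38 other measured replication genes, 6 were higher in TAB (*Gins3*, *Cdc7*, *Dbf4*, *Timeless*, *Prim2* and *Top2a*) and none was lower, beside 9.19% and 7.87% of all genes, with a median mean log2 ratio of 0.25. *Cdc7* and *Dbf4* form the kinase that fires licensed origins and had mean log2 ratios of 2.26 and 1.62, with *Cdc7* found on no sham array and at least 1.66-fold higher against the floor at the 1st percentile. *Top2a*, which untangles the copied DNA, had the largest measured mean log2 ratio, 4.23. It was found on only 1 sham array, so its size and rank are not firm. *Dscc1*, of an alternative clamp loader, was found on no TAB array and on 4 sham arrays, with a mean log2 ratio of −2.11, and did not pass (limma adjusted p = 0.0516). Against the floor at the 1st percentile its fold was bounded only at 1.04. None of 10 other genes of nucleotide synthesis was called, among them *Dctd*, with a mean log2 ratio of 0.79, and *Rrm2b*, with −0.47. Of 14 other S-phase cyclins, kinases and E2F pathway genes, 4 were higher (beside the same 9.19% of all genes), namely the cyclins *Ccne1* and *Ccna2*, the repressor *E2f7* and the pocket protein gene *Rbl1*, with mean log2 ratios of 1.81, 2.81, 2.57 and 1.32. *Ccne1* was found on no sham array and on 1 TAB array, so its ratio was measured almost wholly on spots that were not found.

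Mitosis genes, which act after replication, were higher in 6 of 20 measured (*Bub1b*, *Aurka*, *Aurkb*, *Ttk*, *Kif11* and *Tpx2*) and lower in none, beside 9.19% and 7.87% of all genes. Of the 6, all but *Aurkb* were found on no sham array, and *Ttk* and *Kif11* were found on only 1 TAB array each. *Tpx2*, *Bub1b* and *Aurka* had measured mean log2 ratios of 2.97, 2.94 and 2.73, and against the floor at the 1st percentile TAB was at least 1.38-, 2.40- and 2.62-fold higher, so they have no order in size. The median mean log2 ratio of the 20 was 1.34, beside 0.77 in the replication genes, and 16 of the 20 had their highest sample in TAB day 5, beside 13.6% of all genes. Relative to the sham mean, their median level in the TAB samples was 1.81, 2.42, 0.93, 0.65 and 0.43, the same order of days as in the replication genes, with day 5 first and day 28 last. These lists come from the same samples, so the likeness is a description.

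Most markers of leukocytes and fibroblasts, but not those of the other cell types examined, were also higher in TAB. 7 of 9 measured leukocyte markers were higher in TAB and 1 (*Cd3e*) was lower, beside 9.19% and 7.87% of all genes, and the median level was 1.37, 1.78, 1.49, 0.86 and 0.57 above the sham mean on days 3, 5, 7, 14 and 28. *S100a8*, a neutrophil marker, is among the 7 but was found on no array. 6 of 8 fibroblast markers were higher, against the same 9.19%, and the median level of the 8 was 1.84, 1.93, 1.55, 1.22 and 0.85. The 2 not called, *Dcn* and *Tcf21*, had mean log2 ratios of 0.26 and 0.24. The largest were 3.49, 3.68 and 3.37, those of *Col1a2*, *Col3a1* and *Postn*. The summed intensity of the leukocyte markers was 2566 to 5809 in TAB and 1763 to 2149 in sham, and that of the fibroblast markers 29985 to 48169 and 20194 to 23414. Both lists were still above the sham range on day 28, when the replication genes were within it. None of 10 cardiomyocyte and none of 10 endothelial markers was called, with levels between −0.19 and −0.03 and between −0.07 and 0.33 in TAB, and none of 3 measured erythroid markers. Summed intensities were 250114 to 270093 in TAB and 257714 to 282903 in sham for cardiomyocyte markers, among which *Myl2* lay near the top of the scanner's range. Without *Myl2* they were 184619 to 204593 and 192214 to 219975. What part the cell type makeup had in the ratios of the replication genes was not tested.

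**Figure D5:**
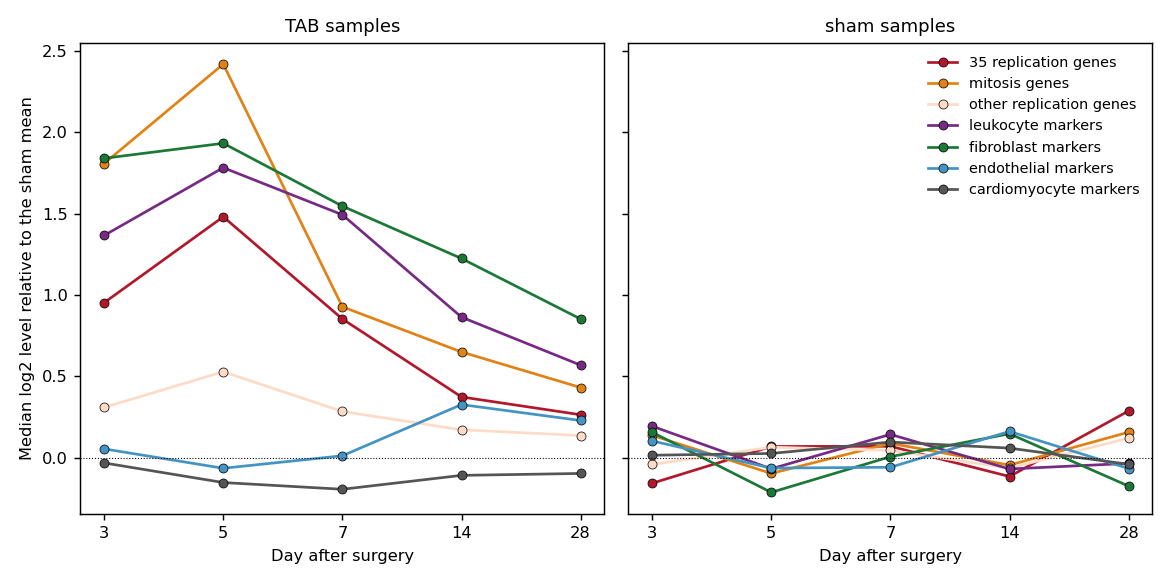
Median log2 level of each gene list relative to the mean of the 5 sham samples (vertical axis) by day after surgery (horizontal axis, days evenly spaced) in the TAB samples (left) and the sham samples (right), 1 sample per point. The 35 replication genes (red) and the mitosis genes (orange) were highest in TAB day 5, at 1.48 and 2.42, leukocyte and fibroblast markers stayed above 0.5 in every TAB sample, and cardiomyocyte markers stayed between −0.20 and 0.10 in all 10 samples.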

How the data were processed

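Left-ventricle RNA of 5 TAB and 5 sham samples, 1 per operation and day, was measured with Cy5 label on a 1-colour oligonucleotide array covering the mouse genome, with spots read in GenePix. The authors deposited raw intensity per probe, from which some background had been subtracted (how is not given in the sources used here), a detection p-value per spot, which was not used, and a flag, whose negative value was taken for a spot not found. The other value deposited with these, the probe's gene symbol, was kept as given, and 3633 of 26423 probes carry none.

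Each array was scaled to the median of the array medians, probes below 1 in any sample were removed (19976 remained), and quantile normalization over the 10 samples, to rank medians, was followed by log2. For each gene the probe whose absolute log2 ratios had the largest sum was taken (16113 genes). Low spots make ratios large and noisy, and removal of probes below 1 keeps genes that are low in 1 group out of the tests. The TAB effect, and its change from the early days (3 to 7) to the late ones (14 and 28), were fitted with limma (lmFit, eBayes, trend and robust off) across all genes, with day as a block because the study takes ratios within a day, and with Benjamini-Hochberg adjustment at 0.05. As a check of this pairing, deviations from the group means were correlated across genes between both samples of each day, and r lay between −0.016 and 0.113. Over the 35 replication genes alone, r lay between −0.061 and 0.208. Nothing states that samples came from separate animals, and a p-value measures the spread between days and samples. Precision is limited by how few arrays there are. A fold against a group in which no spot was found is a bound.

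Every gene of the list is named, with values in all samples for those past 2 SDs on a day or past the limma threshold, the other replication, nucleotide, S-phase and mitosis lists are given by counts, by their called genes and by the 3 largest mean log2 ratios in size, of which 1 is not reported here, and the cell type markers by counts and levels. The members, lists and tests were chosen with earlier results of these data known. Promoter windows came from RefSeq tables on GRCm38.p6. The fits were tested on simulated data. Alternatives were median scaling, normalization within each operation, 50 added before log2, no removal of low probes, probes found on fewer than 5 arrays left out, the brightest probe or the mean of all probes of a gene, a fixed log2 ratio of 1, no block, eBayes with trend and robust on, and omission of each day in turn. The omission of probes not found on all 10 arrays, the floor at the 1st percentile of found intensities for a fold bound, and the counts of genes whose groups do not overlap or whose highest sample is TAB day 5, were added after seeing the data. Tests used limma 3.58.1 in R 4.3.3, and all else Python 3.11.15 (numpy 2.4.6, pandas 2.3.3, matplotlib 3.10.9). The miRNA arrays were not analysed here.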

Additional observations from a re-analysis of the deposited data

Results flagged for a closer look

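In 8 of the 70 groups of 5 samples examined (35 genes in TAB and in sham), 1 sample stood far from the other 4, and chance alone gives about 1 in 20 such groups. The low sham values were those of *Mcm2* on day 14 (21.44), *Mcm10* on day 5 (23.60), *Tk1* on day 14 (17.91) and *E2f1* on day 14 (4.839), whose nearest sham samples were 35.7, 41.2, 56.0 and 36.6 and whose spots were not found, and that of *Orc6* on day 3 (114.8), which was found and whose nearest sham sample was 155.4. The high sham values were those of *Lig1* (147.5) and *E2f8* (96.68) on day 28, with 103.8 and 66.4 next. In TAB, *E2f2* was low on day 14 (33.05, with 44.7 next).

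*Chaf1b* was left out of the comparisons with low probes removed because its probe fell below the minimum in some samples, but its raw intensity reached 69 on TAB day 5, above the highest sham value of 11. What part array noise had in any of these values was not tested.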

How the results depend on the processing

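The sign of the mean log2 ratio of the 12 called genes was the same under every alternative that measured them, and their calls were not. Members called higher (11) were 17 with 50 added, 17 with no replicate block, 18 with trend and robust on (13.2% of all genes), 1 with no probe removed, and 0 to 17 with a day left out. Members called lower (1) were 0 with no probe removed and 0 to 1 with a day left out. All genes called higher (1481) were 2242 with 50 added, 459 with no probe removed and 20 to 1482 with a day left out, and all genes called lower (1268) were 2227, 218 and 1 to 1271 in that order, 2032 with probes not found on all 10 arrays left out and 2064 with trend and robust on. The day block is part of the design, and its omission moved no count but that of members higher by over 1.5 times. Members with another effect on early and late days stayed at 0 throughout.

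By day, a fixed log2 ratio of 1 in place of 2 SDs gave 20, 24, 12 and 10 up-regulated members on days 3, 5, 7 and 14, beside 10.1%, 11.6%, 10.01% and 7.61% of all genes, and 1, 2 and 2 down-regulated on days 3, 5 and 28, beside 8.92%, 9.40% and 5.23%. With probes not found on all 10 arrays left out, which leaves 19 members, 3 were up-regulated on day 7 and 2 on day 14, the medians of these days were 0.6669 and 0.3772, 5 members had all TAB above all sham samples and 14 their highest value in TAB day 5. With 50 added, the medians of days 3, 5, 7 and 14 were 0.6571, 0.9463, 0.4564 and 0.2398, 3 members were up-regulated on day 7, and 1 was down-regulated on day 3 and 0 on day 28. With probes found on fewer than 5 arrays left out, 3 were up-regulated on day 3 and 0 down-regulated on day 28, which was also 0 with normalization within each operation. With no probe removed, 2 were up-regulated and 3 down-regulated on day 28. Apart from those of the fixed ratio, no share of all genes was computed for the counts of members in this paragraph. They thus cannot be set against a background. The mean log2 ratio of *Pola1* turned negative with median scaling (−0.01035), 50 added (−0.04031) and no probe removed (−0.01155), and with a day left out it ran from −0.2345 to 0.3921, that of *Tk1* from −0.1331 to 0.352 and that of *E2f8* from −0.2445 to 0.153. With the floor at the 1st percentile of found spots, the fold bounds of *Uhrf1* and *Clspn* fell from 4.399 to 2.11 and from 2.63 to under 1. The cause of these changes was not tested. Signal over background limits the list, with 16 of 35 genes not found on at least 1 array.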
